A study of Mus musculus with 12 samples.

Results

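The genes described here are imprinted genes, chosen by name from 41 imprinted genes of the mouse and looked up in the gene tables of an RNA sequencing experiment on mouse embryonic stem cells, the pluripotent cells of the early embryo grown in culture. The tables held 40 of the 41 names among 41079 genes. The name Zrsr1 was not among them. A gene entered the tests where its mean abundance over the 12 libraries was at least 1 TPM (transcripts per 1000000, a unit corrected for transcript length that adds up to the same total in every library), which 35 of the 40 and 14107 of all genes reached. The 4 groups of 3 libraries were wild-type cells, wild-type cells with etoposide, cells labelled as a Bod1l knockout with tamoxifen, and such knockout cells with etoposide. Etoposide is a poison of topoisomerase II that leaves breaks in DNA, and the product of Bod1l belongs to the complex of SETD1A, a histone methyltransferase with lysine 4 of histone H3 as its target. The labels give no dose or time, no cell line, and no promoter or clone for the knockout. Tamoxifen is named for the knockout libraries alone, so knockout and tamoxifen cannot be told apart in any comparison of genotypes.

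An imprinted gene is expressed mainly from the chromosome inherited from the mother or from the father. The choice is set by DNA methylation laid down in the egg or sperm at imprinting control regions, which is kept through the erasure of methylation in the early embryo by the zinc finger proteins ZFP57 and ZFP445 with TRIM28, SETDB1 and the DNA methyltransferases. Many control regions are promoters, so that the unmethylated copy is transcribed, often as a long noncoding RNA that silences neighbours. Imprints are known to be lost or gained at some loci in cultured embryonic stem cells. The tables do not separate the parental copies, so a change of abundance is described without reference to which copy it came from.

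The aligned depth was 5.23 to 7.76 gigabases per library, and libraries of a group correlated at 0.994 to 0.995 across genes. Bod1l stood at 48.5, 48.8 and 50.6 TPM in untreated wild type and at 12.0, 11.2 and 11.5 in the untreated knockout, so that the knockout libraries carried less of the transcript but not none. Markers of embryonic stem cells were all above 1 TPM, with 9 of 10 names found, and their summed level was 8400 to 8410 TPM in untreated wild type and 7660 to 7780 in the untreated knockout. The lower sum came mainly from Dppa5a (means of 3810 and 3260 TPM), Pou5f1 (1510 and 1400) and Utf1 (158 and 96.0), while Sox2, Zfp42, Klf4 and Esrrb had slightly higher means in the knockout. Without etoposide none of the 9 was called higher and 3 were called lower. With etoposide 4 of the 9 were called higher and 3 lower. In these bulk libraries fewer cells of a type and less RNA per cell cannot be told apart.

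More imprinted genes were higher than lower in the knockout. Of the 35 tested, 14 rose and 4 fell in untreated cells, where an adjusted p under 0.05 in a limma fit over all tested genes counts as a change. The 18 make 51.4% of the imprinted genes tested, against a background of 49.6% of all tested genes called in that comparison, so the share called is near that of any gene. By direction the background was 28.1% higher and 21.5% lower. The median difference of log2(TPM + 1), the scale of all differences given here, was 0.18 over the imprinted genes and 0.04 over all tested genes, and 27 of the 35 lay above 0. Under etoposide 13 rose and 2 fell, or 42.9% against a background of 44.1% (22.5% higher, 21.7% lower), with a median of 0.16 against 0.02. The untreated and treated comparisons of genotypes share no libraries, but they come from the same fit and share its estimate of spread. Both also set the knockout with tamoxifen against wild type, so they are not independent repeats. The same 13 genes rose in both, and both genes that fell under etoposide also fell without it, while 35.6% of all tested genes were called the same way in both (18.1% higher, 17.5% lower). Groups that do not overlap were common. Without etoposide the knockout lay wholly above wild type for 4622 and wholly below for 3481 of the 14107 tested genes (16 and 4 of the 35). With etoposide the counts were 3968 and 3687 (17 and 3 of the 35).

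**Figure D1:**
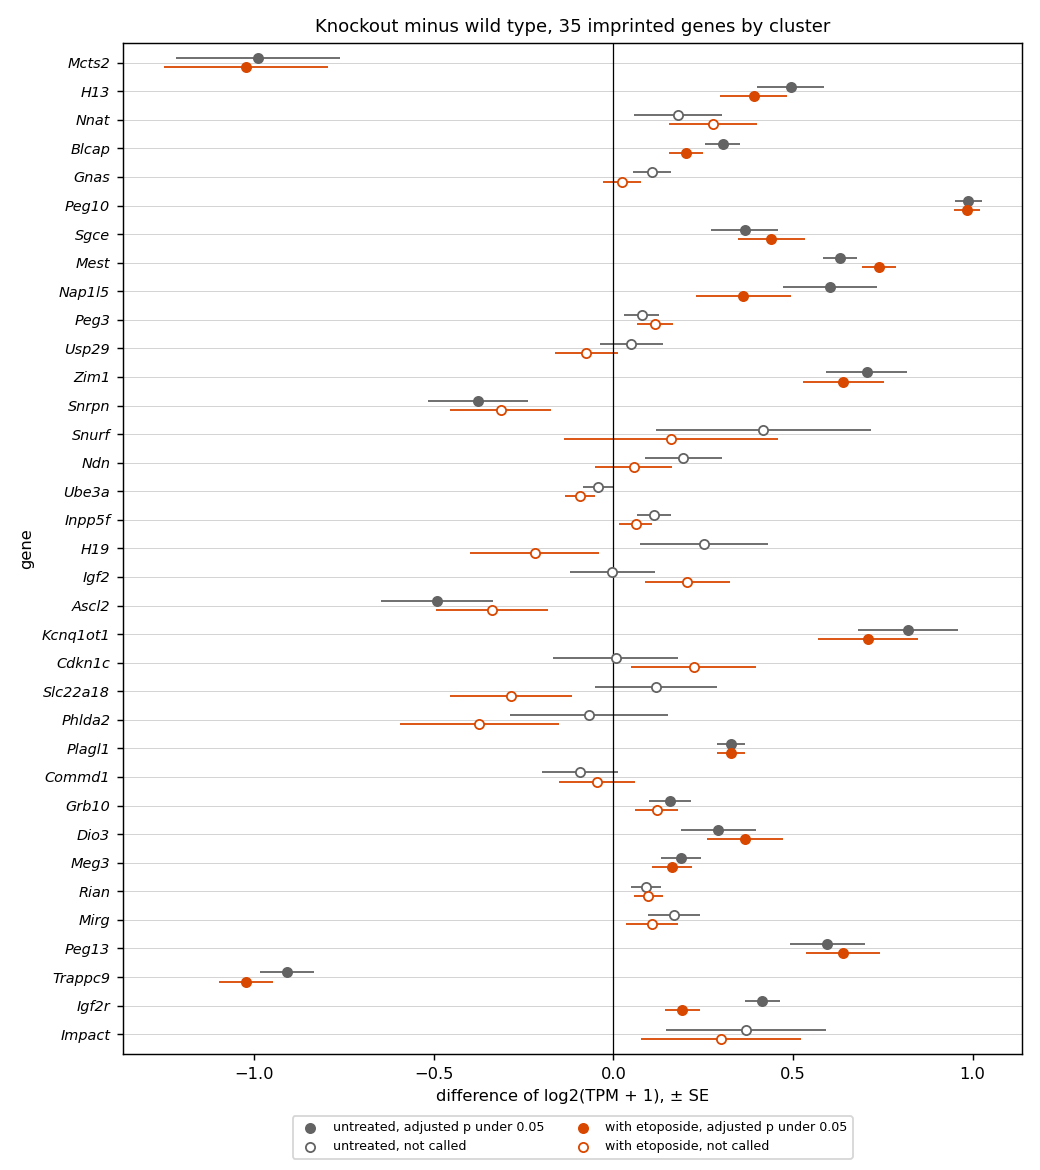
Difference between knockout and wild type for the 35 tested imprinted genes, grouped by cluster and in order of chromosome from top to bottom. Values are differences of log2(TPM + 1) with standard errors (limma, 3 libraries per group). Grey points are untreated cells, orange points are cells with etoposide, and filled points passed at an adjusted p under 0.05. Peg10 lies farthest to the right, and Mcts2 and Trappc9 farthest to the left, in both comparisons.

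Grouped by the parental copy usually expressed, 8 of 17 tested paternally expressed genes rose and 2 fell in the untreated knockout, with a median difference of 0.33. Under etoposide 8 rose and 1 fell, with a median of 0.30. Of 11 maternally expressed genes 4 rose and 1 fell without etoposide (median 0.16), and 3 rose and none fell with it (median 0.11). The other 7 are imprinted only in some tissues or isoforms or hold transcripts of both kinds, and 2 of them rose and 1 fell in each comparison. Against a background of 49.6% called untreated and 44.1% with etoposide, the shares called were 58.8% and 52.9% of the paternally expressed genes, 45.5% and 27.3% of the maternally expressed genes and 42.9% in each for the others. Without etoposide the share of the maternally expressed genes was near the background, and with it the share was below. With 11 genes tested, neither share is read as a trait of the group. No test compared these groups with each other.

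The summed abundance of the 40 genes was 1865 to 1895 TPM in untreated wild type and 2149 to 2223 in the untreated knockout. With etoposide it was 1728 to 1806 and 1943 to 2063. The 3 noncoding RNAs Meg3, Rian and Mirg made 43.6% to 49.4% of that sum in each library. The knockout libraries thus held the higher sums with and without etoposide, and the groups did not overlap.

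Peg10, a paternally expressed gene derived from a retrotransposon and needed for the placenta, had the lowest adjusted p among the imprinted genes in both comparisons of genotypes. It stood at 85.3, 83.0 and 82.7 TPM in untreated wild type and at 170.3, 169.2 and 161.4 in the untreated knockout. With etoposide the wild-type libraries held 71.9, 73.9 and 68.9 TPM and the knockout libraries 135.7, 144.9 and 147.1. Every knockout library was far above every wild-type library, and within each genotype every treated library was below every untreated one. The difference between genotypes was 0.99 ± 0.04 (SE, adjusted p = 2.25e-09, 2.0 times the wild-type mean) without etoposide and 0.98 ± 0.04 (adjusted p = 2.94e-09) with it.

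Sgce, which encodes epsilon-sarcoglycan of the membrane complex that anchors muscle and other cells, is transcribed away from Peg10 from a shared control region and is paternally expressed too. It was far less abundant, at 7.15, 5.73 and 7.38 TPM in untreated wild type and 9.30, 9.40 and 8.19 in the untreated knockout. With etoposide it held 6.97, 7.199 and 6.59 TPM in wild type and 9.17, 10.8 and 9.35 in the knockout. The groups did not overlap, with differences of 0.37 ± 0.09 (adjusted p = 0.00642) and 0.44 ± 0.09 (adjusted p = 0.00247). The ratio of Peg10 to Sgce was 10.3 to 14.5 over all wild-type libraries and 13.5 to 19.7 over all knockout libraries, so the pair did not move in equal proportion. Asb4, a maternally expressed gene of the same cluster, stayed at 0.0374 to 0.199 TPM and was not tested.

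Mest, a paternally expressed gene for an enzyme of the alpha/beta hydrolase family active in mesoderm, stood at 113.1, 113.1 and 121.6 TPM in untreated wild type and at 182.0, 181.9 and 175.5 in the untreated knockout. With etoposide the values were 79.4, 91.2 and 84.0 in wild type and 143.7, 144.9 and 138.0 in the knockout. All knockout libraries lay above all wild-type libraries, treated or not. Mest differed by 0.63 ± 0.05 (adjusted p = 5.2e-07, 1.55 times) without etoposide and by 0.74 ± 0.05 (adjusted p = 1.74e-07, 1.68 times) with it.

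Plagl1, a paternally expressed zinc finger transcription factor known for restraining growth, was among the most abundant of the protein-coding members. It held 131.6, 143.6 and 135.1 TPM in untreated wild type and 172.8, 170.1 and 172.3 in the untreated knockout. With etoposide it held 123.6, 118.6 and 112.6 TPM in wild type and 144.8, 153.1 and 147.5 in the knockout. The groups did not overlap, and the difference was 0.33 ± 0.04 in both comparisons (adjusted p = 2.76e-05 and 3.54e-05). The noncoding RNA Hymai lies on the same strand within the span of Plagl1, so reads of the pair could have been split between them.

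Nap1l5, a paternally expressed gene without introns that is known from brain, was rare. It stood at 0.582, 0.577 and 0.541 TPM in untreated wild type and at 1.29, 1.53 and 1.33 in the untreated knockout, and passed the filter through the other 3 groups. With etoposide it held 1.84, 1.43 and 1.05 TPM in wild type and 1.76, 2.19 and 2.41 in the knockout. The untreated groups were apart, at 0.60 ± 0.13 (adjusted p = 0.00245), whereas the treated groups overlapped, at 0.36 ± 0.13 (adjusted p = 0.0423). The treated call held in 4 of 13 alternatives, over which the adjusted p ran from 0.0154 to 0.169. With a pseudocount of 0.1 the untreated difference was 1.15, since the log scale with 1 added shrinks a gene this low. Nap1l5 lies inside Herc3 on the opposite strand.

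The promoters of Mest, Plagl1, Nap1l5 and Mcts2 are each known to be methylated in the egg. In both comparisons of genotypes Mest, Plagl1 and Nap1l5 rose and Mcts2 fell. These 4 genes were chosen for display, so that all of them changed is not read as a result. Their windows from RefSeq, 250 bases before to 50 after the annotated start (build GRCm38.p6), are shown because they carry the hexamer TGCCGC that ZFP57 binds when it is methylated, or its reverse complement GCGGCA. Each is written 5′ to 3′ on the strand of the gene, with the hexamer on either strand in capitals. The windows are chr6:30737800-30738099 (plus strand) for Mest, chr10:13090582-13090881 (plus strand) for Plagl1, chr6:58907077-58907376 (minus strand) for Nap1l5 and chr2:152686898-152687197 (plus strand) for Mcts2.
Mest: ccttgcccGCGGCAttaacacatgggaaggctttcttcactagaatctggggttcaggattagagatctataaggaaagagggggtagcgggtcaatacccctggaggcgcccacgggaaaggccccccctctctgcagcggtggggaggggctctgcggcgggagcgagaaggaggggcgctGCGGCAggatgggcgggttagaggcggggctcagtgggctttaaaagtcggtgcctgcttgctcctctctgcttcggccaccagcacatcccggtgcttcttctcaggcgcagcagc
Plagl1: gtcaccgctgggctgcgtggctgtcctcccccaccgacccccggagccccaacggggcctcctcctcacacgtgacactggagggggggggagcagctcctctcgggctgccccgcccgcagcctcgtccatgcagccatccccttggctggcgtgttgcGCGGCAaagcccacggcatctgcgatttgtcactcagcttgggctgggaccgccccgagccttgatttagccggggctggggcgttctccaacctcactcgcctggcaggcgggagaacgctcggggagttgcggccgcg
Nap1l5: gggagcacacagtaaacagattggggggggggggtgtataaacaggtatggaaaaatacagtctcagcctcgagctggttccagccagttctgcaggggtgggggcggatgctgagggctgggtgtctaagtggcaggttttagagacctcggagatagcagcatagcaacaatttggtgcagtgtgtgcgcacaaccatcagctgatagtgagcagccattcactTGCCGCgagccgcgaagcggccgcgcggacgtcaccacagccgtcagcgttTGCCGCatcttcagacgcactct
Mcts2: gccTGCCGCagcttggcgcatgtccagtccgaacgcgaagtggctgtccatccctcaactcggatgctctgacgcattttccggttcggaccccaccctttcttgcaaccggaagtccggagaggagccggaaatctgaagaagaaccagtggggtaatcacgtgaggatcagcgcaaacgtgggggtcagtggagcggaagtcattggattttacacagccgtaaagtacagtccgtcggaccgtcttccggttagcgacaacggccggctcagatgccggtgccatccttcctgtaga
The windows shown of Mest and Nap1l5 hold 2 matches each and those of Plagl1 and Mcts2 hold 1 each, with 17, 17, 26 and 25 CpG in the order Mest, Nap1l5, Plagl1, Mcts2. Mest has 2 further windows, of which 1 lies almost wholly on the window shown and the other, at an upstream start, holds 8 CpG and no match. Among all 32851 windows of this length 11.6% held the hexamer, with a median of 7 CpG. The imprinted genes had 47 windows, of which 13 (27.7%) held it, with a median of 15 CpG. Counted by gene, it was found for 12 of the 32 with a window (37.5%), with Snrpn and Snurf sharing the same one. Of the 11 genes with a window that were called in both comparisons of genotypes, 6 held it (54.5%). Among the other 21 genes with a window 6 held it (28.6%). No test compared these shares. A match describes letters and not a binding site.

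**Figure D2:**
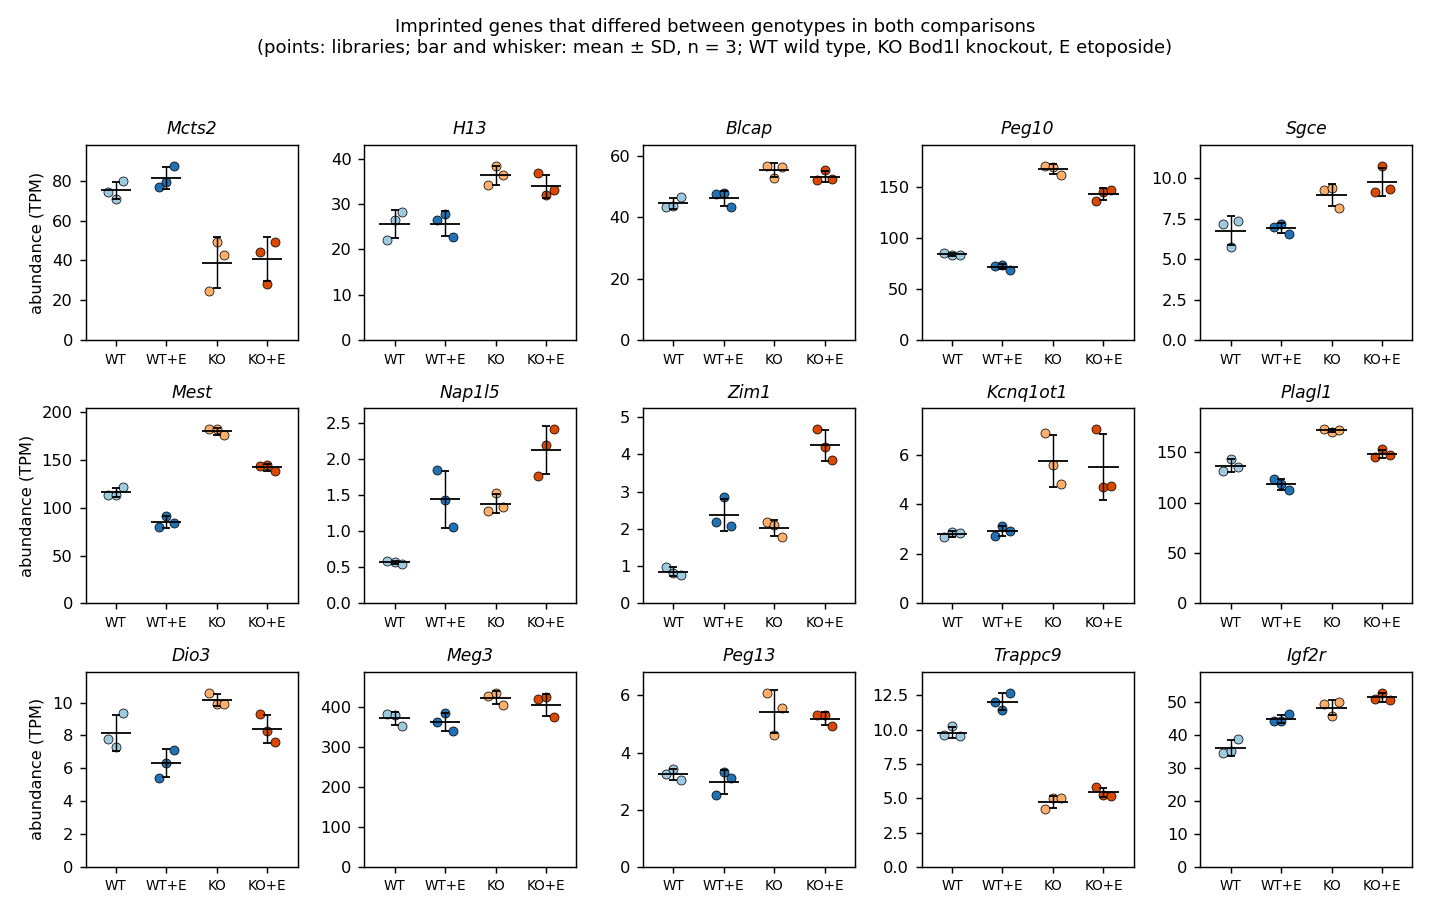
Abundance in TPM (vertical axes, each from 0) of imprinted genes called in both comparisons of genotypes, in the 4 groups (horizontal axes; WT wild type, KO Bod1l knockout, E etoposide). Points are libraries and bars with whiskers are means ± SD (n = 3). Peg10, Mest and Plagl1 show the knockout above wild type and the treated libraries below the untreated ones of the same genotype.

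At the Kcnq1 domain, the noncoding RNA Kcnq1ot1 is transcribed from the paternal copy and silences neighbours that are expressed from the maternal copy. Kcnq1ot1 measured 2.67, 2.87 and 2.86 TPM in untreated wild type and at 6.87, 5.6 and 4.81 in the untreated knockout. Under etoposide it measured 2.71, 3.15 and 2.92 in wild type and at 7.04, 4.72 and 4.74 in the knockout. The knockout libraries were all above the wild-type libraries and spread more widely, and the differences were 0.82 ± 0.14 (adjusted p = 0.000422, 2.06 times) and 0.71 ± 0.14 (adjusted p = 0.00145, 1.88 times). Kcnq1 itself, on the opposite strand, was listed at 0.

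The maternally expressed genes of the domain were all low. Ascl2, a transcription factor of the placental lineage, held 4.12, 4.25 and 4.68 TPM in untreated wild type and 3.58, 2.87 and 2.09 in the untreated knockout, where it fell by 0.49 on the log2 scale (SE 0.16, adjusted p = 0.0201). Its groups did not overlap, but the call was lost without the third wild-type library (adjusted p = 0.0639), without the third knockout library (0.0856) and with no filter (0.0573). Under etoposide its difference was -0.34 ± 0.16 (adjusted p = 0.1). Cdkn1c, an inhibitor of cyclin-dependent kinases, differed by 0.01 ± 0.17 and 0.22 ± 0.17, and Phlda2, which limits placental growth, by -0.07 ± 0.22 and -0.37 ± 0.22. Slc22a18, a membrane transporter, differed by 0.12 ± 0.17 and -0.29 ± 0.17. None of these 3 passed in either comparison. Without the third wild-type library, however, Slc22a18 differed by 0.35 ± 0.12 in untreated cells and was called (adjusted p = 0.0391).

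At the Igf2r locus, the receptor that clears insulin-like growth factor 2 is maternally expressed in most tissues, and the paternal noncoding RNA Airn runs against it. Igf2r stood at 34.4, 34.98 and 38.7 TPM in untreated wild type and at 49.3, 45.7 and 49.9 in the untreated knockout. Treated libraries held 44.2, 44.1 and 46.3 TPM in wild type and 50.8, 52.8 and 50.5 in the knockout. Untreated wild type was the lowest group, treated wild type was intermediate, and the knockout groups were highest. The difference between genotypes was 0.41 ± 0.05 (adjusted p = 2.71e-05) without etoposide and 0.19 ± 0.05 (adjusted p = 0.00763) with it. Airn ranged from 0 to 0.386 TPM and was not tested, being listed at 0 in 2 libraries of each wild-type group.

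At the Igf2 and H19 locus neither gene passed between genotypes. Igf2, the paternally expressed growth factor, ranged from 1.11 to 1.93 TPM over all libraries, with differences of 0.00 ± 0.12 and 0.21 ± 0.12. H19, the maternally expressed noncoding RNA, ranged from 1.504 to 4.23 TPM, with differences of 0.25 ± 0.18 and -0.22 ± 0.18.

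The Dlk1 and Meg3 domain held the most abundant imprinted transcripts. Meg3, the maternal noncoding RNA whose silencing is a known fault of cultured pluripotent cells, stood at 383.0, 379.1 and 353.1 TPM in untreated wild type and at 428.6, 436.0 and 405.7 in the untreated knockout. Under etoposide Meg3 stood at 362.7, 384.9 and 340.3 in wild type and at 420.2, 424.0 and 374.6 in the knockout. The transcript was abundant in every library. It was 0.19 ± 0.06 higher (adjusted p = 0.0134) without etoposide, with the groups apart, and 0.16 ± 0.06 higher (adjusted p = 0.0302) with it, with the groups overlapping. The untreated call was lost without the third wild-type library (adjusted p = 0.0576), and the treated call held in 8 of 15 alternatives (adjusted p from 0.000606 to 0.123).

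Rian, the host of many small nucleolar RNAs, and Mirg, the host of many microRNAs, lie downstream of Meg3 on the same strand. Short entries on that strand lie inside both, so reads could have been split with them. Among these are AF357359 in Rian (30 bases, mean of 332 TPM) and Mir3072 in Mirg (83 bases, mean of 24.1 TPM). Rian ranged from 387.4 to 496.7 TPM and Mirg from 66.3 to 90.5. Their differences were 0.09 ± 0.04 and 0.17 ± 0.07 without etoposide and 0.10 ± 0.04 and 0.11 ± 0.07 with it, and none passed (adjusted p from 0.0731 to 0.258). Rian was called in untreated cells without the third knockout library (adjusted p = 0.0169). Mirg was called there without the second wild-type (0.0371) or the third knockout library (0.0448), and with etoposide without the second treated wild-type library, at 0.19 (0.0485). Of the paternal genes, Dio3, a deiodinase that inactivates thyroid hormone, held 7.80, 7.28 and 9.36 TPM in untreated wild type and 10.6, 9.93 and 9.93 in the untreated knockout. Dio3 held 5.43, 6.34 and 7.14 TPM in treated wild type and 9.28, 8.27 and 7.61 in the treated knockout. Its groups did not overlap, with differences of 0.29 ± 0.11 (adjusted p = 0.0355) and 0.37 ± 0.11 (adjusted p = 0.0139). The untreated call held in 9 of 15 alternatives (adjusted p up to 0.133) and the treated call in 13 of 15 (up to 0.062). Dlk1, a ligand-like membrane protein, ranged from 0.607 to 2.15 TPM and Rtl1, of retrotransposon origin, from 0.0801 to 0.217, and neither was tested.

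In the clusters of Mcts2 with H13 and of Peg13 with Trappc9, a paternally expressed gene lies within another member on the same strand, and inner and outer gene moved in opposite directions. Mcts2, a retrocopy of the X-linked translation factor gene Mcts1, lies within H13, which encodes signal peptide peptidase and whose use of polyadenylation sites is imprinted. Mcts2 stood at 74.6, 71.1 and 79.9 TPM in untreated wild type and at 24.5, 49.4 and 42.7 in the untreated knockout. Treated cells held 77.1, 79.4 and 87.5 TPM in wild type and 44.4, 28.1 and 49.1 in the knockout. All knockout libraries were below all wild-type libraries but varied among themselves, and Mcts2 fell by 0.99 (SE 0.23, adjusted p = 0.0034, to 51.7% of wild type) and by 1.02 on the log2 scale (SE 0.23, adjusted p = 0.00329).

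H13 stood at 22.2, 26.6 and 28.1 TPM in untreated wild type and at 34.2, 38.4 and 36.5 in the untreated knockout. With etoposide it stood at 26.6, 27.9 and 22.7 in wild type and at 36.8, 32.0 and 33.1 in the knockout. H13 was higher in every knockout library, by 0.49 ± 0.09 (adjusted p = 0.000909) and 0.39 ± 0.09 (adjusted p = 0.00498). The ratio of Mcts2 to H13 was 2.67 to 3.86 in the wild-type libraries and 0.717 to 1.49 in the knockout libraries. All 781 bases of Mcts2 lie inside H13 on the same strand, so reads could have been split between them, and the closely related copy Mcts1 could share reads too. Mcts1, looked at after the values of Mcts2 were seen, differed by -0.07 ± 0.07 (adjusted p = 0.409) without etoposide and fell by 0.29 (SE 0.07, adjusted p = 0.00379) with it.

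Peg13, a paternal noncoding RNA, lies within Trappc9, which encodes a subunit of a vesicle tethering complex and is maternally biased in brain. Peg13 stood at 3.25, 3.43 and 3.03 TPM in untreated wild type and at 6.10, 4.62 and 5.57 in the untreated knockout. With etoposide it stood at 2.52, 3.33 and 3.11 in wild type and at 5.31, 5.31 and 4.93 in the knockout. It was higher in all knockout libraries, by 0.60 ± 0.10 (adjusted p = 0.000535, 1.68 times) and 0.64 ± 0.10 (adjusted p = 0.000395, 1.74 times).

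Trappc9 went the other way. It stood at 9.58, 10.3 and 9.51 TPM in untreated wild type and at 4.25, 4.99 and 5.01 in the untreated knockout. With etoposide it stood at 12.0, 11.4 and 12.7 in wild type and at 5.82, 5.25 and 5.20 in the knockout. It fell by 0.91 (SE 0.07, adjusted p = 1.21e-06, to 48.5% of wild type) and by 1.02 on the log2 scale (SE 0.07, adjusted p = 5.95e-07, to 45.0%), with no overlap. The ratio of Peg13 to Trappc9 was 0.209 to 0.339 in the wild-type libraries and 0.913 to 1.44 in the knockout libraries. All 4723 bases of Peg13 lie inside Trappc9, and a shared read could have been given to either.

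Mest overlaps a gene outside the list. Copg2, a coatomer subunit gene transcribed towards Mest from the opposite strand, shares 36029 bases with it. Copg2 stood at 43.8, 42.5 and 44.3 TPM in untreated wild type and at 20.8 ± 2.27 TPM (mean ± SD, n = 3) in the untreated knockout, where every library was lower. It fell by 1.04 on the log2 scale (SE 0.07, adjusted p = 2.67e-07) without etoposide and by 0.96 (SE 0.07, adjusted p = 6.43e-07) with it, while Mest rose in both. Cep41, a centrosomal protein gene near Mest, fell by 1.36 in both comparisons (SE 0.08, adjusted p = 5.69e-08 and 7.12e-08).

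**Figure D3:**
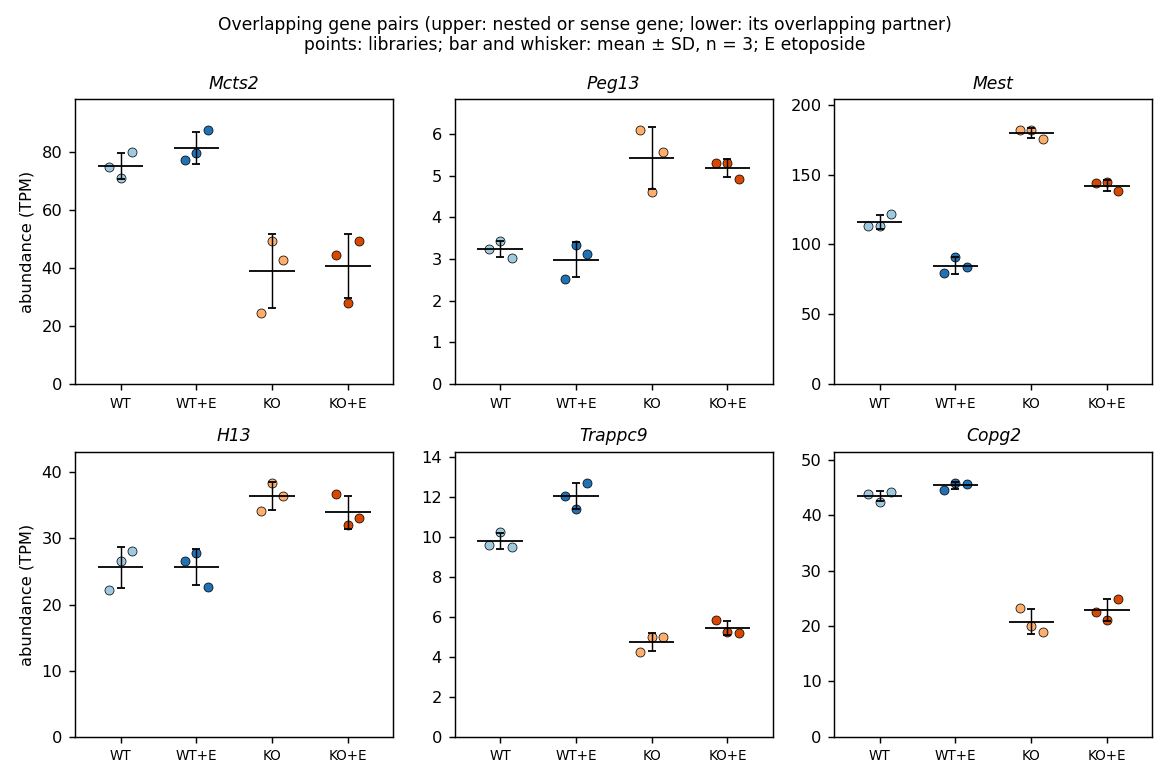
Abundance in TPM (vertical axes, each from 0) of 3 overlapping pairs in the 4 groups (horizontal axes; WT wild type, KO Bod1l knockout, E etoposide), with libraries as points and means ± SD (n = 3). Peg13 and Mest were higher in the knockout while their partners Trappc9 and Copg2 were lower, and Mcts2 was lower while H13 was higher.

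Nnat and Blcap also overlap, on opposite strands. Nnat, a paternally expressed proteolipid gene of the nervous system, ranged from 7.598 to 12.9 TPM, and its differences of 0.18 ± 0.12 and 0.28 ± 0.12 did not pass (adjusted p = 0.243 and 0.0848), the latter being called without the first treated wild-type library (0.0438). Blcap, whose imprinting is limited to brain, held 43.3, 43.9 and 46.8 TPM in untreated wild type and 56.8, 52.7 and 56.5 in the untreated knockout. Blcap was higher by 0.30 ± 0.05 (adjusted p = 0.000239) and, with etoposide, by 0.20 ± 0.05 (adjusted p = 0.0047), without overlap in either. The Gnas locus, which gives rise to the stimulatory G protein subunit and to other transcripts imprinted on either copy, ranged from 85.7 to 107.8 TPM and did not pass (0.11 ± 0.05 and 0.03 ± 0.05).

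Of the 3 members in the Peg3 cluster, Zim1 passed. Zim1, a maternally expressed zinc finger gene, stood at 0.986, 0.806 and 0.774 TPM in untreated wild type and at 2.19, 2.10 and 1.79 in the untreated knockout. With etoposide the values were 2.19, 2.85 and 2.08 TPM in wild type and 4.67, 4.19 and 3.85 in the knockout. The knockout libraries were higher with and without etoposide, by 0.71 ± 0.11 (adjusted p = 0.000287) and 0.64 ± 0.11 (adjusted p = 0.000717). Zim1 was under 1 TPM in untreated wild type and passed the filter through the other groups. Peg3, a paternally expressed zinc finger gene, ranged from 32.3 to 39.1 TPM with differences of 0.08 ± 0.05 and 0.12 ± 0.05. Usp29, a deubiquitinase-like gene transcribed away from Peg3, ranged from 2.89 to 3.71 TPM with differences of 0.05 ± 0.09 and -0.08 ± 0.09. Peg3 and Usp29 passed in neither comparison. With etoposide, however, Peg3 was called once the second treated wild-type library was left out (adjusted p = 0.0445) and with quantile scaling (0.034). Whether Zim1 differed from Peg3 and Usp29 was not tested.

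The Snrpn and Ube3a domain, whose human counterpart is disturbed in Prader-Willi and Angelman syndromes, held 4 tested members, of which Snrpn passed. Snrpn, a splicing protein gene expressed from the paternal copy, held 17.5, 15.5 and 15.1 TPM in untreated wild type and 11.7, 13.8 and 11.0 in the untreated knockout. It fell by 0.38 on the log2 scale (SE 0.14, adjusted p = 0.0412) with the groups apart, a call that held in 8 of 15 alternatives (adjusted p up to 0.127). With etoposide its difference was -0.31 ± 0.14 (adjusted p = 0.089) and the groups overlapped, but it was called at -0.48 without the first treated wild-type library (adjusted p = 0.00914). Snurf, which shares transcripts with Snrpn and lies within its span on the same strand, ranged from 2.73 to 8.49 TPM and differed by 0.42 ± 0.30 and 0.16 ± 0.30, so the split of reads between the pair is uncertain. Snhg14 (mean of 10.1 TPM over the 12 libraries) spans both on the same strand, so reads could have been split with it too. It also overlaps Ube3a on the opposite strand. Without the second wild-type library the untreated difference of Snurf was 0.76 ± 0.26 and was called (adjusted p = 0.0356). Ndn, a growth-restraining gene of neurons, ranged from 2.83 to 5.36 TPM and did not pass (0.20 ± 0.11 and 0.06 ± 0.11). Ube3a, a ubiquitin ligase gene imprinted only in neurons, ranged from 47.5 to 58.3 TPM and did not pass (-0.04 ± 0.04 and -0.09 ± 0.04), though the treated difference was called without the first treated wild-type library (adjusted p = 0.0477). Magel2 stayed at 0.0156 to 0.540 TPM and was not tested.

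Grb10, an adaptor protein that dampens insulin signalling, held 9.28, 9.53 and 9.84 TPM in untreated wild type and 11.2, 11.4 and 9.79 in the untreated knockout. The groups overlapped, and the difference of 0.16 ± 0.06 (adjusted p = 0.0443) held in 5 of 15 alternatives (adjusted p up to 0.153). With etoposide its difference was 0.12 ± 0.06 (adjusted p = 0.121). Inpp5f, a phosphoinositide phosphatase gene with an imprinted brain isoform, differed by 0.11 ± 0.05 and 0.06 ± 0.05 and passed in neither (adjusted p = 0.0581 and 0.3). Its groups did not overlap in either comparison, and both differences were called with quantile scaling (adjusted p = 0.0414 and 0.0357). Commd1, a regulator of copper handling, ranged from 75.0 to 98.1 TPM and differed by -0.09 ± 0.11 and -0.05 ± 0.11. A gene inside Commd1 on the opposite strand, listed as Zrsr2-ps1, was higher by 0.26 ± 0.06 (adjusted p = 0.00189) and 0.17 ± 0.06 (adjusted p = 0.0253). Zrsr1, a paternally expressed gene, is known to lie inside Commd1, so Zrsr2-ps1 may be the same locus under another name, but the tables do not pair the names and it was not counted. Impact, a regulator of translation, varied from 61.5 to 118.5 TPM, and its differences of 0.37 ± 0.22 and 0.30 ± 0.22 did not pass.

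Etoposide changed 14 of the 35 imprinted genes in wild type, 9 higher and 5 lower (40.0%, against a background of 34.3% of all tested genes, 20.8% higher and 13.5% lower). In the knockout it changed 8, 3 higher and 5 lower (22.9%, against 25.0%, 14.5% higher and 10.5% lower). The medians were 0.03 and -0.04 over the imprinted genes and 0.02 and 0.00 over all tested genes. These comparisons share libraries with the comparisons of genotypes, but not with each other, and all come from the same fit with a shared estimate of spread. In both genotypes Grb10, Inpp5f and Zim1 rose, and Mest, Peg10, Plagl1 and Rian fell. Among all tested genes 12.8% rose in both genotypes and 7.8% fell in both. In wild type the treated group lay wholly above the untreated one for 3815 and wholly below for 2759 of the 14107 tested genes. In the knockout the counts were 3023 and 2548.

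The fall was largest for Mest among these 4, by 0.45 (SE 0.05, adjusted p = 1.21e-05) in wild type and by 0.34 on the log2 scale (SE 0.05, adjusted p = 0.000218) in the knockout. Peg10 fell by 0.22 in wild type (SE 0.04, adjusted p = 0.000545) and by 0.23 in the knockout (SE 0.04, adjusted p = 0.00074). Plagl1 fell by 0.21 in each (SE 0.04, adjusted p = 0.00129 and 0.00185). All 3 had risen in the knockout, so that their lowest group was treated wild type and their highest the untreated knockout. Rian fell by 0.16 in each genotype (SE 0.04, adjusted p = 0.00817 and 0.014). With quantile scaling both calls of Rian were lost, at -0.10 (adjusted p = 0.1) in wild type and -0.12 (0.0643) in the knockout, and the knockout call was also lost without the second untreated (0.0598) or the third treated knockout library (0.0564). Each of these treated groups lay wholly below its untreated group.

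Zim1 had the largest rise under etoposide, by 0.86 ± 0.11 (adjusted p = 8.67e-05, 2.77 times) in wild type and 0.79 ± 0.11 (adjusted p = 0.000279, 2.09 times) in the knockout. Inpp5f stood at 14.9, 16.1 and 16.1 TPM in untreated wild type and at 20.1, 20.3 and 19.8 with etoposide. It rose by 0.34 ± 0.05 (adjusted p = 0.000113) there and by 0.28 ± 0.05 (adjusted p = 0.000658) in the knockout. Grb10 stood at 12.1, 12.2 and 11.8 TPM in treated wild type, above all 3 untreated libraries, and rose by 0.31 ± 0.06 (adjusted p = 0.00165) there and by 0.27 ± 0.06 (adjusted p = 0.0055) in the knockout.

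**Figure D4:**
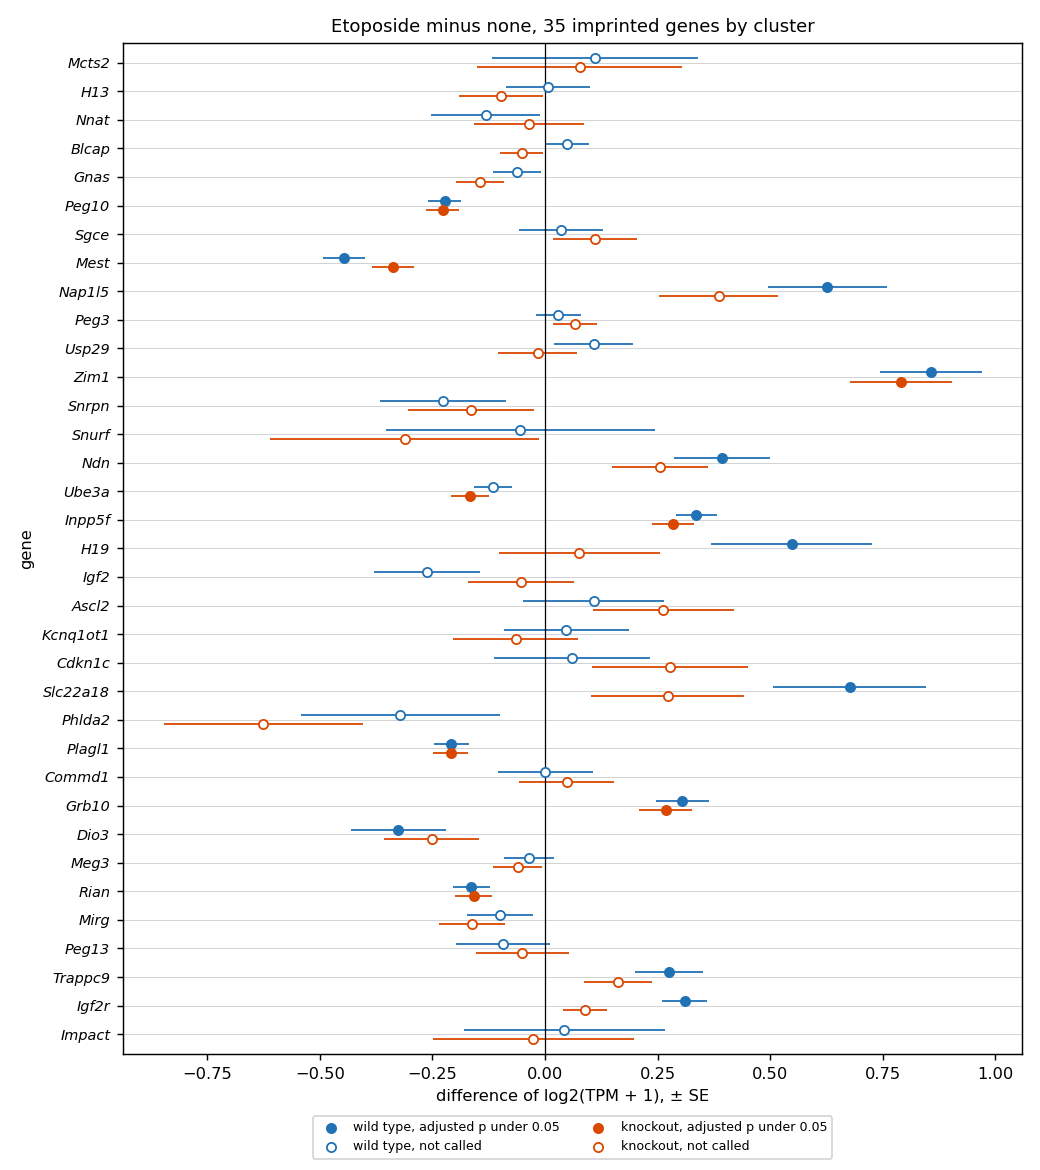
Difference between etoposide-treated and untreated cells for the 35 tested imprinted genes, grouped by cluster and in order of chromosome from top to bottom. Values are differences of log2(TPM + 1) with standard errors (limma, 3 libraries per group). Blue points are wild type, orange points are the knockout, and filled points passed at an adjusted p under 0.05. Zim1 lies farthest to the right in both genotypes (0.86 and 0.79), and Mest is the lowest of the filled points (-0.45 and -0.34).

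A further 7 genes were called under etoposide in wild type alone. Igf2r rose by 0.31 ± 0.05 (adjusted p = 0.000387), against 0.09 ± 0.05 in the knockout. Slc22a18 rose by 0.68 ± 0.17 (adjusted p = 0.00834) and Nap1l5 by 0.63 ± 0.13 (adjusted p = 0.0028), against 0.27 ± 0.17 and 0.39 ± 0.13 in the knockout. The other rises were in Trappc9 (0.28 ± 0.07, adjusted p = 0.0128), Ndn (0.39 ± 0.11, adjusted p = 0.0129) and H19 (0.55 ± 0.18, adjusted p = 0.0324). Dio3 fell by 0.33 (SE 0.11, adjusted p = 0.0302). The calls of Ndn, H19, Dio3 and Trappc9 were each lost under at least 1 alternative, with an adjusted p of up to 0.193, 0.166, 0.124 and 0.141. Ube3a was called in the knockout alone, where it fell by 0.17 (SE 0.04, adjusted p = 0.0124), against -0.12 ± 0.04 in wild type (adjusted p = 0.0522). The wild-type groups of Ube3a did not overlap, and that difference was called in 5 of 15 alternatives. The lowest value in the knockout was that of Phlda2, at -0.63 ± 0.22, which did not pass (adjusted p = 0.058) but was called without the second untreated (0.0445) or the third treated knockout library (0.0196). Of the other genes not called, Snrpn (-0.40, adjusted p = 0.0229) was called in wild type without the third treated library and Ube3a (0.0418) without the second. In the knockout Gnas (0.0254) was called without the third treated library and Nap1l5 (0.0402) without the first, while Ube3a (0.054) was lost without the first.

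No imprinted gene passed the test of the difference between these responses, the interaction of genotype and etoposide. The background was 1.23% of all tested genes. Only Igf2r had an unadjusted p under 0.05 in that limma test, with an interaction of -0.22 ± 0.07 (adjusted p = 0.214), and none of the 35 passed in any alternative. The genes called in only 1 genotype are therefore not shown to respond differently in the other, and the same holds for Ascl2, Grb10 and Snrpn, which were called between genotypes only without etoposide.

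Changes were also looked for beside the imprinted genes. Within 100000 bases of a member 79 other genes were tested. Between genotypes 18 rose and 14 fell in untreated cells, with a median difference of 0.03, and 15 rose and 12 fell with etoposide, with a median of 0.04. Their shares called, 40.5% and 34.2%, lay below the 49.6% and 44.1% of all tested genes. Many of the 79 are short entries for microRNAs or small nucleolar RNAs in or beside Rian and Mirg. Such entries can vary widely between libraries, as Mir679 did (0.370 to 4.47 TPM). Their part in the lower shares was not tested, so the shares are not read as a trait of the neighbours. Besides Copg2 and Cep41, Aurkc beside Usp29 fell by 0.72 (SE 0.09, adjusted p = 4.56e-05), Platr27 near Nnat fell by 0.80 (SE 0.12, adjusted p = 0.000181) and Sf3b5 near Plagl1 fell by 0.52 (SE 0.03, adjusted p = 1.66e-07) in untreated cells. Pdk4 and Pon2 near Asb4 rose by 0.74 ± 0.09 (adjusted p = 3.56e-05) and 0.75 ± 0.11 (adjusted p = 0.000119), and Cars1 near Phlda2 rose by 0.49 ± 0.03 (adjusted p = 8.22e-08). These, like Copg2 and Cep41, were picked after their values were seen, from the neighbours that passed in both comparisons of genotypes.

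The factors that set and keep imprints were described with a list of 39 genes, of which 35 were tested. In the untreated knockout 9 were higher and 14 lower (65.7%, against 49.6% of all tested genes), and under etoposide 6 were higher and 12 lower (51.4%, against 44.1%), with medians of -0.01 and -0.05. Dnmt3a, a methyltransferase that sets new methylation, stood at 13.9, 14.5 and 14.8 TPM in untreated wild type and at 7.97, 8.64 and 8.39 in the untreated knockout. It fell by 0.72 (SE 0.06, adjusted p = 1.62e-06) and, with etoposide, by 0.67 on the log2 scale (SE 0.06, adjusted p = 4.06e-06). Its partners Dnmt3b and Dnmt3l fell by 0.31 and 0.29 in untreated cells (adjusted p = 4.96e-06 and 0.000536), and Uhrf1, which guides the maintenance methyltransferase, fell by 0.22 (adjusted p = 1.69e-05).

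The maternal factors Ooep, Khdc3 and Dppa3, the last of which shields methylation in the zygote, fell by 0.48, 0.30 and 0.33 in the untreated knockout (adjusted p = 1.62e-06, 0.000581 and 0.00458) and also fell under etoposide. Tet2, an enzyme that oxidises methylated cytosine, was higher in both comparisons (0.38 ± 0.04 without etoposide, adjusted p = 2.35e-05). So were Zfp445 (0.27 ± 0.04 without etoposide, adjusted p = 0.000219), Setdb1 (0.16 ± 0.03, adjusted p = 0.000267) and Kmt5b (0.17 ± 0.05, adjusted p = 0.0164). Zfp57 stood at 489.7, 527.7 and 488.6 TPM in untreated wild type and at 624.3, 607.3 and 506.7 in the untreated knockout. Its groups overlapped, with a difference of 0.20 ± 0.07 (adjusted p = 0.0294), and it was not called with etoposide. Trim28 fell by 0.09 (SE 0.02, adjusted p = 0.00179) and Dnmt1, the maintenance methyltransferase, rose by 0.06 ± 0.02 (adjusted p = 0.0444) in untreated cells. Neither was called with etoposide (0.00 ± 0.02 for each). The interaction did not pass for Zfp57, Trim28 or Dnmt1 (adjusted p = 0.634, 0.158 and 0.554), so their differences are not shown to depend on etoposide. Under etoposide 18 of the list fell and 2 rose in wild type, and 17 fell and none rose in the knockout. Those make 57.1% and 48.6% of the list, against 34.3% and 25.0% of all tested genes.

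**Figure D5:**
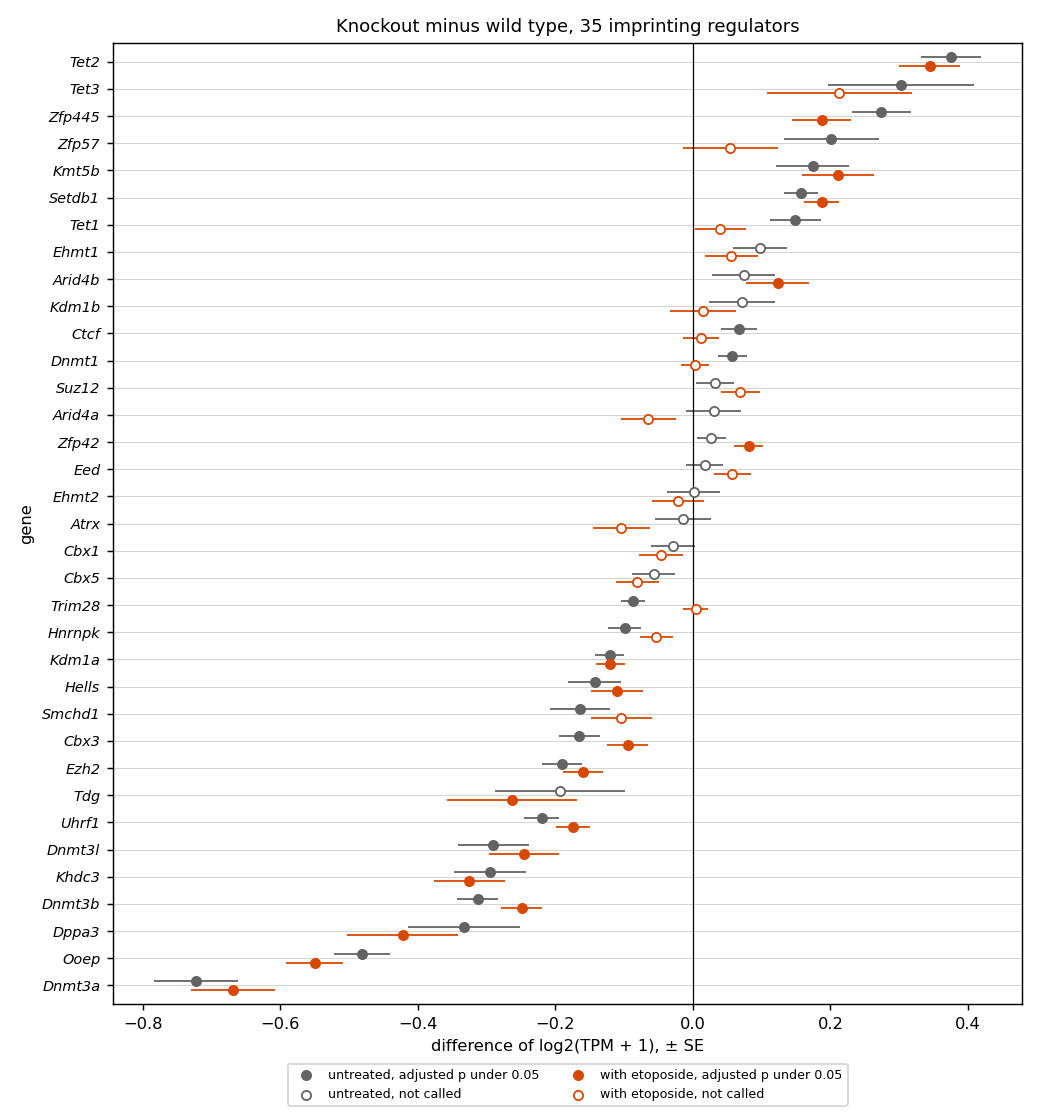
Difference between knockout and wild type for the tested factors that set and keep imprints, as the difference of log2(TPM + 1) with its standard error (limma, 3 libraries per group), without and with etoposide. Dnmt3a lies farthest to the left in both (-0.72 and -0.67).

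Across the 12 libraries the abundance of the changed genes had close parallels elsewhere in the table. The gene most like Peg10 in log2(TPM + 1) was Brd2 (Pearson r = 0.992), that most like Mest was Csrnp2 (r = 0.987), that most like Trappc9 was Nek9 (r = 0.994) and that most like Igf2r was Calr4 (r = 0.994). These are the highest of all tested genes over 12 points that share the 4 groups, and they are given as a description.

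Markers of other cells that such a culture could hold were summed as a measured background to the changes between genotypes. Markers of extraembryonic endoderm summed to 67.7 to 71.9 TPM in untreated wild type and to 103 to 112 in the untreated knockout, and to 62.8 to 64.8 and 86.6 to 94.2 with etoposide. Lama1 alone had a mean of 65.4 TPM in untreated wild type, against 100 in the untreated knockout, and Dab2 (1.16 and 2.65), Gata4 (0.87 and 1.58) and Gata6 (0.268 and 0.944) also had higher means there. Gata6 averaged under 1 TPM over the 12 libraries and was not tested. Of the 4 tested markers of this list 3 were called higher and none lower in the untreated knockout, where 49.6% of all tested genes were called. Sox17, Sox7, Foxa2, Afp and Ttr stayed under 1 TPM in every library. Sox7 (0.562 and 0.348), Foxa2 (0.202 and 0.158) and Afp (0.0579 and 0.0) had lower means in the untreated knockout, whereas Sox17, Ttr and Pdgfra had higher ones. Markers of feeder fibroblasts summed to 440 to 451 TPM in untreated wild type and 308 to 319 in the untreated knockout, mostly Vim (means of 434 and 303), and 6 of 10 (Col1a2, Col3a1, Postn, Lum, Dcn and Acta2) stayed under 1 TPM. Of the 4 tested feeder markers 1 was called higher and 2 lower in the untreated knockout. Thy1 (5.75 and 4.14) had a lower mean there too, whereas Fbln2 (3.27 and 5.88) had a higher one. Markers of trophectoderm, counted without Ascl2, summed to 90.4 to 95.4 and 79.2 to 83.2 TPM, with Elf5, Hand1 and Plac1 under 1 TPM. In that list Tfap2c (means of 47.7 and 32.4 TPM) and Eomes (11.0 and 8.47) had the lower means in the knockout, whereas Cdx2 (2.11 and 3.25), Gata3 (1.47 and 1.88), Krt8 (26.5 and 29.5) and Krt18 (3.76 and 5.1) had higher ones. Germline markers summed to 142 to 152 and 118 to 123 TPM, mesoderm markers to 35.9 to 38.5 and 38.2 to 39.9, and neuroectoderm markers to 154 to 165 and 150 to 161. The part of these levels in the changes of the imprinted genes was not tested.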

How the data were processed

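RNA from 12 libraries of mouse embryonic stem cells was selected for poly(A), depleted of ribosomal RNA and sequenced strand-specifically, per the labels' protocols. Per the submitters' processing notes the tools were Trim Galore 0.6.6, cutadapt 3.4, HISAT2 2.2.1 and StringTie 2.2.1 with build GRCm39. Per the file headers, the authors deposited for each gene a TPM value, an FPKM value and a coverage signal. A model for counts does not suit these units and none was applied. Whether strand was used in assigning reads is not given in the sources used here. FPKM served as an alternative, and depth in aligned bases was worked out from coverage and FPKM.

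Here log2(TPM + 1) of the 14107 genes that averaged 1 TPM or more was fitted with limma 3.58.1 (R 4.3.3) as 4 group means with an abundance trend (prior degrees of freedom 3.91, residual 8), with p values adjusted by Benjamini-Hochberg over all genes of a comparison. The code was tested on simulated data. The median standard error fell with abundance, from 0.139 at a mean TPM of 1 to 5 through 0.067 at 5 to 50 down to 0.037. The labels name biological replicates without describing separate cultures, so the spread behind each p value may be technical. Any imprinted gene could be named, with neighbours and regulators that passed. The members and all lists were chosen with earlier results of these data known. Alternatives were quantile or median-of-ratios scaling, FPKM, a pseudocount of 0.1, no filter, a filter at 5, a block for the replicate number, a robust spread, the compared groups alone and leaving out each library. Promoter windows came from RefSeq (GRCm38.p6) and matched 32 of the 40 genes by symbol. Python 3.11.15, pandas 2.3.3, numpy 2.4.6 and matplotlib 3.10.9 were used.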

Additional observations from a re-analysis of the deposited data

How the results depend on the processing

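Of 55 calls on imprinted genes over the comparisons, 40 held under every alternative run and 15 did not, and no difference reversed. Of 120 that were not called, 21 passed under at least 1 alternative. With no filter the imprinted genes lower in the untreated knockout numbered 2 instead of 4. Over the fits that leave out a library they numbered 2 to 4, and 2 without the third wild-type or the third knockout library. Under etoposide they numbered 2, and 2 to 4 with a library left out, 4 being without the first treated wild-type library. With a filter at a mean TPM of 5, the imprinted genes higher with etoposide in wild type numbered 4 instead of 9, as fewer were tested. Over all genes the interaction was called for 174, for 104 with no filter, for 102 with quantile scaling and for 93 to 131 with a library left out. Beyond the number of genes tested or of libraries, the cause of these shifts was not tested. With a pseudocount of 0.1 the difference of Zim1 between untreated genotypes was 1.16 instead of 0.71.

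The replicate numbers are not taken to pair the libraries, as correlations of same-numbered deviations were -0.037 to 0.045, and not every library correlated best with its own number. With the replicate block 6901 genes were called between untreated genotypes instead of 7000. Grb10 (adjusted p = 0.0541) was then no longer called there, nor Nap1l5 under etoposide (0.0633). Gained with the block were Rian (0.00618) and Mirg (0.00821) without etoposide, Rian (0.00519) and Nnat (0.0328) with it, and Mirg (0.02) for etoposide in the knockout. Low abundance limits the precision for H19, Igf2, Nap1l5, Zim1 and the maternally expressed genes of the Kcnq1 domain.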
